A study of Mus musculus with 144 samples.

Results

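The genes followed here are those that mark B cells and build their antigen receptor: the receptor's signalling chains, its co-receptors, other B cell surface proteins, the enzymes and adaptors that carry its signal, and the transcription factors that hold B cell identity. Of 31 genes named, 30 had at least 1 probe set annotated to that gene alone, among 18193 genes so represented on the array, and 13 of the 30 had several. The 30 genes held 56 probe sets, and each gene is reported by the probe set with the highest mean signal, leaving aside cross-hybridizing designs where there was a choice. Cd38 had no such probe set and is not reported.

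The study measured RNA of blood leukocytes and spleen cells from mice after injury on Affymetrix whole-genome mouse arrays. Burned mice and mice with trauma-hemorrhage, which combines tissue trauma and blood loss, were each sampled at 2 hr, 1 day, 3 day and 7 day, in blood and in spleen, beside sham mice of the same model, tissue and time. A further arm gave C57BL/6J mice lipopolysaccharide (LPS), a bacterial cell-wall product, or a sham treatment, and sampled blood leukocytes at 2 hr and 1 day. Blood was drawn by cardiac puncture, and red cells were lysed in blood and spleen samples alike. The labels give the strain only for that arm, and give neither age nor sex nor genotype beyond it. Each of the 36 groups had 4 arrays, 144 in all, each from an individual mouse per the series description, and that number limits the precision of every value below.

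Values are MAS5 signals, a linear intensity scaled per array. Log2 changes are injured or LPS-treated minus sham on log2(signal + 32), so they understate changes of dim genes. Rises and falls are reported where limma gave an adjusted p under 0.05 (Benjamini-Hochberg, over every gene tested in that comparison). The percent of all tested genes called lower is given beside the first count of B cell genes called lower in each comparison.

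B cells recognise antigen through membrane immunoglobulin coupled to the Cd79a and Cd79b chains, whose phosphorylation starts a cascade through kinases, the adaptor Blnk and phospholipase C. Co-receptors such as Cr2 lower the threshold of that cascade, and Cd22 and Cd72 raise it. The factors Ebf1 and Pax5 set up the B cell programme, and Spi-B, Oct-2 and its partner Pou2af1 act in mature B cells, which fill the follicles and marginal zone of the mouse spleen and are a major lymphocyte of mouse blood. Btk, Plcg2, Cd37, Ly86 and Cd55 are known also from other leukocytes. In bulk samples such as these, fewer B cells and less of their RNA per cell cannot be told apart.

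RefSeq promoters (build GRCm38.p6, 250 bases before to 50 after the gene start) were found for 28 of the 31 genes, 33 promoters in all. They are shown for 4 genes because several of the B cell factors are themselves among the genes measured, and capitals mark a letter match to such a factor. In the Cd22, Blnk and Vpreb3 promoters the capitals are the EBF1 core (TCCC and GGGA around any 2 bases) or the octamer ATGCAAAT read by Oct-2, on either strand, and in the Cd79a promoter they are the core GAGGAA shared by PU.1 and Spi-B.
Cd22 promoter, chr7:30878979-30879278, minus strand: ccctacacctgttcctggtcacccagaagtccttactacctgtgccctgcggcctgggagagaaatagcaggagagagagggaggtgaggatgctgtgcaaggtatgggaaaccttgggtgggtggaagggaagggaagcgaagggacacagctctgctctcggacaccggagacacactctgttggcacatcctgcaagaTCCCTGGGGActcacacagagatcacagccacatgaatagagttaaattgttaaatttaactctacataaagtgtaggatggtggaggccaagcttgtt
Blnk promoter, chr19:40994172-40994471, minus strand: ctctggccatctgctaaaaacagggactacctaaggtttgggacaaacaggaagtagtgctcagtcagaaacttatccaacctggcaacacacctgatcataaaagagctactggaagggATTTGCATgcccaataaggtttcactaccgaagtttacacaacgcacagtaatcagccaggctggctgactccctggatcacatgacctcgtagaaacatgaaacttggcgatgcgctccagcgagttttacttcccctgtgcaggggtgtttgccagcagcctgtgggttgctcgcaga
Vpreb3 promoter, chr10:75948050-75948349, plus strand: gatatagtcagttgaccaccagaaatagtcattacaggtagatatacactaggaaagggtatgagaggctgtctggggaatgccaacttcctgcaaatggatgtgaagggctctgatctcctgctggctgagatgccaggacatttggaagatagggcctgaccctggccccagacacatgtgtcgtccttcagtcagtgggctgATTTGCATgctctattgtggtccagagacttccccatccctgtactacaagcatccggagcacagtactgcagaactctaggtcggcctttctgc
Cd79a promoter, chr7:24897247-24897546, plus strand: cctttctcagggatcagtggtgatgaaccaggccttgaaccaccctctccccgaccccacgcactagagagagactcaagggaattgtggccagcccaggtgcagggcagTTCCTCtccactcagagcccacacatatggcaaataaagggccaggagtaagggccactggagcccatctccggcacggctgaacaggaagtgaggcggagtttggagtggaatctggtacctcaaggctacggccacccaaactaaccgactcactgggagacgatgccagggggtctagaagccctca

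The EBF1 core lay at position -49 of Cd22 relative to the gene start. The octamer lay at position -130 of Blnk and -45 of Vpreb3, reading on the opposite strand in both. The octamer was in 2 of the 33 promoters (6.06%), against 1.735% of 32851 promoters of the same length, and the EBF1 core in 1 (3.03%), against 0.904%. GAGGAA was in 10 of 33 (30.3%), against 28.3% of all. These matches are descriptions of the letters in a window and say nothing of binding. The 4 genes are followed below, and 1 day after burn in blood their log2 changes were -3.36 for Cd22, -1.57 for Blnk, -2.38 for Vpreb3 and -2.50 for Cd79a.

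Sham arrays give the level each injured group is set against, and in blood that level differed between times. The mean log2 level of the 30 genes was at most 10.93 on trauma-hemorrhage sham blood arrays at 2 hr and at least 11.61 at 1 day. On burn-model sham blood arrays it was at most 11.32 at 2 hr and at least 11.59 at 1 day. Ms4a1 ran from 2419 to 14219 over the sham blood arrays. The part of this shift in the 2 hr changes and the comparisons between times was not tested. Ms4a1, the CD20 surface protein, had a median of 10171 over the 32 sham blood arrays of the injury models and 12251 over the 32 sham spleen arrays. Pax5 was dim throughout: its median was 53.4 on sham blood and 72.7 on sham spleen arrays, and it lay below the pseudocount of 32 on 9 blood, 3 spleen and all 8 LPS-arm sham arrays. All 30 genes passed the filter on low values in blood and in spleen, and 29 did in the LPS arm, where Pax5 was not tested.

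Over the 16 injury comparisons, the B cell genes were called lower 165 times and higher 1 time, for Btk in spleen 2 hr after burn. Over all tested genes, 5.09% of the gene-by-comparison changes were called lower and 5.11% higher. Of the 480 changes of B cell genes 442 were negative, against 54.2% of those of all tested genes. A call was made for 29 of the 30 genes in at least 1 comparison, Pax5 being without one, and 12 of the 16 comparisons called at least 1 gene. Cd79a, Cd79b, Cd72, Spib and Ralgps2 were each called lower in 8 of 16 comparisons, and Pou2af1, the octamer coactivator, in 2. Comparisons at different times share no arrays, but those of 1 tissue share the spread estimated by the fit.

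**Figure D1:**
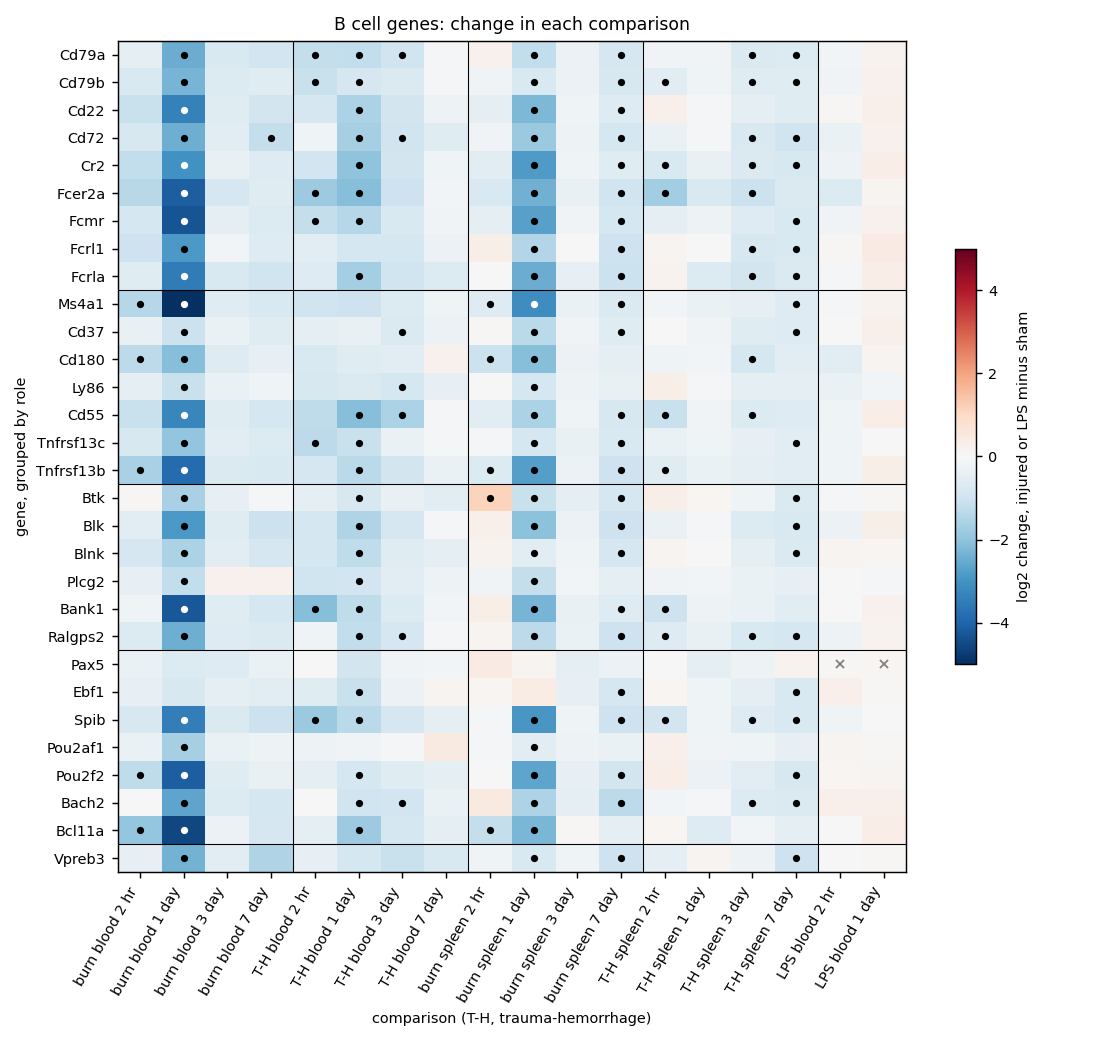
Log2 change (injured or LPS minus sham, colour scale -5 to 5) of 30 B cell genes, in rows grouped by role, over 18 comparisons in columns; a dot marks a limma adjusted p under 0.05 and a cross a gene not tested. The darkest column is burn blood at 1 day, where 28 of 30 genes carry a dot, followed by burn spleen at 1 day with 28, and both LPS columns carry none.

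Arrays differed in technical level. The spiked hybridization controls BioB and BioC stood over 2 times the median of their set on 15 arrays, 8 of blood and 7 of spleen. They include 3 of 4 burn spleen arrays at 1 day, 3 of 4 trauma-hemorrhage blood arrays at 3 day and all 4 at 7 day. Within each model and tissue, replicates 1 and 2 were hybridized on one day and 3 and 4 on another, equally in injured and sham groups.

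One day after burn the B cell genes were far lower in blood, the deepest change of the series for them. Of 30 genes, 28 fell, against 16.2% of all genes, with a median log2 change of -2.58, against -0.01 over all genes. The fall was over 2-fold for 28 genes, over 4-fold for 21 and over 8-fold for 12. All 4 burned arrays lay below all 4 sham arrays for 29 genes, where 18% of all genes did so. The summed signal of the 30 genes was 21.3, 20.0, 20.7 and 23.8% of the sham mean on the 4 burn arrays, against 93.0% to 106% on the sham arrays.

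All 9 genes grouped here as receptor chains, co-receptors and Fc receptor-related proteins fell in burned blood at 1 day. Cd79b, one of the signalling chains, read 2223, 2186, 2169.9 and 2932 on the burn arrays, against 11362, 13046, 11854 and 11119 on the sham arrays, a log2 change of -2.31 (SE 0.29, limma adjusted p = 3.75e-09). Cr2, the complement receptor that joins the B cell co-receptor, read 74.4, 153, 103 and 100.1 on the burn arrays, against 1252, 1344, 862 and 961 on the sham arrays, a change of -3.03 (SE 0.39, limma adjusted p = 1.05e-08). For both genes every burned array lay below every sham array. Fcmr, the Fc receptor for IgM, changed by -4.31 on the log2 scale, Fcer2a, the low-affinity IgE receptor CD23, by -4.12, Fcrla by -3.51, Cd22 by -3.36 and Cd79a by -2.50. The other probe sets gave smaller changes for Fcer2a, -2.28, and for Fcrla, -3.08 and -2.92.

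The 7 other surface proteins all fell as well. Ms4a1 read 368, 387, 234 and 431 on the burn arrays, against 12994, 12728, 10959 and 11852 on the sham arrays, a change of -5.00 (SE 0.39, limma adjusted p = 7.51e-16), and the 2 groups are far apart. It was the largest change among the B cell genes. Tnfrsf13b (TACI), a receptor for the survival factors BAFF and APRIL, changed by -3.84, Cd55, which protects cells from complement, by -3.25, and Tnfrsf13c, the BAFF receptor, by -1.98. Ly86 changed by -1.13. Cd37 changed by -1.06 by the probe set reported, and by -2.67 by its other probe set.

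All 6 signalling genes fell in burned blood at 1 day. Bank1, a scaffold that binds receptor kinases, read 395, 337, 411 and 324 on the burn arrays, against 8179, 7259, 6532 and 7804 on the sham arrays, a change of -4.23 (SE 0.31, limma adjusted p = 1.49e-16), with no overlap of the groups. Blk, a Src-family kinase, changed by -2.88, Btk by -1.61, Blnk by -1.57 and Plcg2 by -1.24. The order of these changes was not tested gene against gene.

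Of the 7 transcription factors, 5 fell. Pou2f2 (Oct-2) read 222, 130.2, 16.7 and 169 on the burn arrays, against 2327, 2521, 2225 and 2647 on the sham arrays, a change of -4.12 (SE 0.29, limma adjusted p = 2.89e-17). Its burned arrays spread widely, with the third below the pseudocount, but all lay below every sham array. The 2 other probe sets of Pou2f2 had changes of -0.88 and -0.06. Bcl11a, needed for early B cell development, changed by -4.55, Spib by -3.47, Bach2, a repressor of plasma cell fate, by -2.65, and Pou2af1 by -1.66. The 6 other probe sets of Bcl11a changed by -4.15 to -1.44, and the 2 others of Bach2 by -3.59 and -2.77.

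Ebf1 and Pax5, the factors at the head of the B cell programme, were not called. Ebf1 read 5608, 5199.7, 5794 and 6272 on the burn arrays, against 12923, 9027, 7921 and 10279 on the sham arrays, a change of -0.79 (SE 0.34, limma adjusted p = 0.0803), and its groups nonetheless did not overlap. Its 4 other probe sets changed by -1.66 to 0.14, 3 of them negative. Pax5 read 2.25, 52.8, 7.66 and 1.52 on the burn arrays, against 40.4, 54.3, 14.4 and 52.0 on the sham arrays, a change of -0.66 (SE 0.44, limma adjusted p = 0.309), with overlapping groups. Vpreb3, which binds receptor chains during their assembly, fell, at -2.38. With 1 array left out in turn, the number of genes called was 28 every time, and the median change was -2.74 on the first hybridization day and -2.64 on the second.

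**Figure D2:**
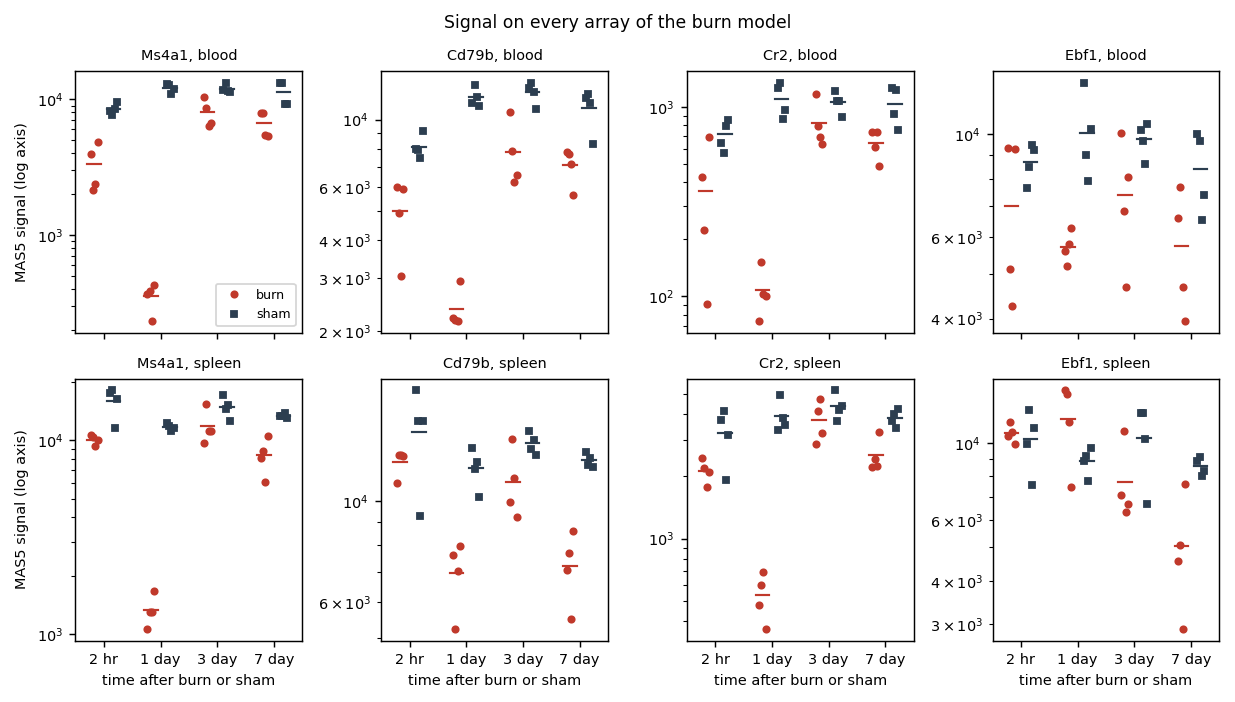
MAS5 signal (log axis) of Ms4a1, Cd79b, Cr2 and Ebf1 on every array of the burn model, in blood (top) and spleen (bottom), by time; red circles are burn, dark squares sham, and short lines the group means. At 1 day the burn arrays of Ms4a1 lie at 234 to 431 in blood and 1068 to 1676 in spleen, below all sham arrays, while those of Ebf1 lie below all sham arrays in blood and overlap with them in spleen.

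The early burned blood already held lower levels of some of these genes. At 2 hr, 5 of 30 fell, against 1.14% of all genes, and the median change was -0.77. Bcl11a read 834, 665, 896 and 1082 on the burn arrays, against 2903, 3532, 3396 and 3515 on the sham arrays, a change of -1.92 (SE 0.40, limma adjusted p = 0.00277), and its 6 other probe sets changed by -1.97 to -0.48. Tnfrsf13b read 429, 422, 435 and 680 on the burn arrays, against 1589.7, 1253, 1784 and 1636 on the sham arrays, a change of -1.63 (SE 0.34, limma adjusted p = 0.00262). Neither gene's groups overlapped. Pou2f2 averaged 786 ± 201 on the burn arrays and 1917 ± 267 on the sham arrays (SD, n = 4 each), a change of -1.28 (SE 0.29, limma adjusted p = 0.00582), while its 2 other probe sets had changes of -0.29 and -0.11.

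Ms4a1 and Cd180, a Toll-like receptor relative that pairs with Ly86, also fell at 2 hr, at -1.42 and -1.30, while Btk, at 0.05, and Bach2, at 0.01, had values near 0. The burned arrays were uneven, with summed B cell signals of 79.6, 56.5, 39.5 and 89.6% of the sham mean. Complete separation below sham was seen for 12 of the 30 genes (6.66% of all genes). Without burn replicate 3, the lowest, 2 genes were called, and without burn replicate 4, the highest, 10 were. The median was -0.54 on the first hybridization day and -1.01 on the second.

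At 3 day after burn no B cell gene in blood passed the threshold in limma, where 0.0205% of all genes were called lower and 1.06% higher. At an unadjusted p under 0.05, 7 of 30 were lower, as were 4.23% of all genes. A fit on these 2 groups alone called 3 of 30, and 3.02% of all genes in either direction. Changes were negative for 29 of 30, with a median of -0.60, and all 4 burned arrays lay below all sham arrays for 14 genes, where 4.57% of all genes did so. Ms4a1 read 10409.9, 8683, 6307 and 6693 on the burn arrays, against 11765, 13241, 11576 and 11247 on the sham arrays, a change of -0.60 (SE 0.39, limma adjusted p = 0.685). The groups of Ms4a1 did not overlap, although the change was not called.

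At 7 day only Cd72, an inhibitory co-receptor, was called in burned blood, against 0.314% of all genes lower. It read 1009, 777, 513 and 615 on the burn arrays, against 1918, 1449, 1579 and 1788 on the sham arrays, a change of -1.21 (SE 0.35, limma adjusted p = 0.0488), with no overlap. Leaving out burn replicate 2, 3 or 4 or any of the 4 sham replicates gave 0 calls, while leaving out burn replicate 1 kept the count at 1. The median was -0.72, 29 of 30 changes were negative and 15 genes had groups that did not overlap (6.69% of all genes), Vpreb3 having the largest change at -1.49. A fit on these 2 groups alone called 19 of 30, and 7.42% of all genes in either direction.

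**Figure D3:**
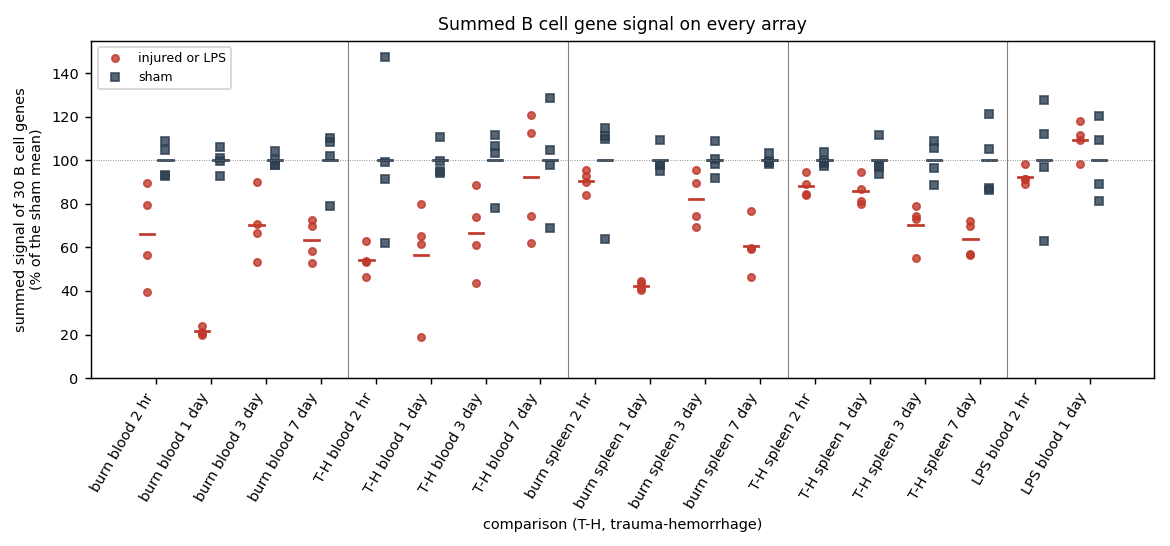
Summed MAS5 signal of the 30 B cell genes on every array, as a percent of the sham mean of its comparison; red circles are injured or LPS arrays, dark squares sham arrays, and short lines the means. Burn blood at 1 day lies at 20.0% to 23.8%, burn spleen at 1 day at 40.5% to 44.5%, and 1 trauma-hemorrhage blood array at 1 day stands apart at 18.9%.

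After trauma-hemorrhage, blood B cell genes were called lower at 2 hr, 1 day and 3 day. At 2 hr, 7 of 30 fell, against 1.28% of all genes, with a median of -0.83. Bank1 read 587, 586, 694 and 637 on the trauma-hemorrhage arrays, against 4426, 4800.1, 1885 and 1636 on the sham arrays, a change of -2.13 (SE 0.31, limma adjusted p = 2.44e-06). Spib read 968, 1674, 983 and 834 on the trauma-hemorrhage arrays, against 4073, 8448, 3548 and 1926 on the sham arrays, a change of -1.84 (SE 0.39, limma adjusted p = 0.00152). The groups of both genes were apart, and the sham arrays spread more widely than the injured ones.

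Tnfrsf13c averaged 3639.6 ± 558 on the trauma-hemorrhage arrays and 9611 ± 4709 on the sham arrays (SD, n = 4 each) at 2 hr after trauma-hemorrhage, a change of -1.29 (SE 0.33, limma adjusted p = 0.0136). Fcer2a, at -1.83, Fcmr and Cd79a, both at -1.20, and Cd79b, at -1.09, fell with them, and the other Fcer2a probe set changed by -1.08. The injured group lay wholly below sham for 13 of the 30 genes (2.85% of all genes). Without injured replicate 1 the count was 2, without sham replicate 2 it was 3 and without sham replicate 3 it was 4. The sham array of replicate 2 had a high spiked control level and the highest summed B cell signal, 148% of the sham mean, and without high-level arrays 4 genes were called. A fit on these 2 groups alone called 2 of 30, and 0.928% of all genes in either direction. The median was -1.18 on the first hybridization day and -0.34 on the second.

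At 1 day after trauma-hemorrhage 22 of 30 genes fell in blood, against 10% of all genes, with a median of -1.18. The spiked control level was 1.70, 1.44, 1.54 and 1.51 times the blood median on the injured arrays. It was 0.915 to 1.07 times that median on the sham arrays, so this level cannot be told apart from the injury. Cr2 read 187, 111, 652 and 512 on the trauma-hemorrhage arrays, against 942, 2067, 1063 and 1322 on the sham arrays, a change of -2.01 (SE 0.39, limma adjusted p = 0.000315). Cd72 read 650, 125, 1168 and 1349 on the trauma-hemorrhage arrays, against 1685, 2437, 2123 and 1966 on the sham arrays, a change of -1.67 (SE 0.35, limma adjusted p = 0.000586). Cd55 read 829.5, 235, 1818 and 1945 on the trauma-hemorrhage arrays, against 2369, 8147, 2982 and 5195 on the sham arrays, a change of -2.13 (SE 0.46, limma adjusted p = 0.000844). In all 3 the groups were apart and injured replicate 2 was the lowest array. The 2 other Cd55 probe sets changed by -0.93 and -0.87.

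That array stood apart at 1 day. The summed B cell signal was 65.4, 18.9, 61.5 and 80.2% of the sham mean on injured replicates 1 to 4, against 94.2% to 111% on the sham arrays. All injured arrays were below sham for 20 of the 30 genes (9.26% of all genes). Without injured replicate 2, 7 genes were called rather than 22, and a fit on these 2 groups alone called 12, and 10.2% of all genes in either direction. The median was -1.81 on the first hybridization day and -0.58 on the second, and fits within a day called 22 genes on the first, which held that array, and 0 on the second, where 10.8% and 0.908% of all genes were called in either direction. Ms4a1 was not called, at -1.03 (SE 0.39, limma adjusted p = 0.0551), and neither were Pax5, Cd37, Cd180, Ly86, Fcrl1, Vpreb3 and Pou2af1. Ebf1 fell, at -1.13 (SE 0.34, limma adjusted p = 0.0148), with overlapping groups, and its 4 other probe sets changed by -1.70 to -0.15. Pou2f2 fell by the probe set reported, at -0.87, but its 2 other probe sets had changes of 0.31 and 0.32.

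At 3 day, 7 of 30 genes fell in trauma-hemorrhage blood, against 7.86% of all genes, with a median of -0.83 against -0.21 over all genes. Cd55 read 1385, 1729, 1871 and 694 on the trauma-hemorrhage arrays, against 5149, 4702, 2561 and 4215 on the sham arrays, a change of -1.57 (SE 0.46, limma adjusted p = 0.018), with no overlap, and its 2 other probe sets changed by -1.15 and -0.36. Bach2, at -0.96 (SE 0.31, limma adjusted p = 0.0302), and Ralgps2, an exchange factor for Ral, at -0.84 (SE 0.28, limma adjusted p = 0.035), were called with overlapping groups. Complete separation below sham was seen for 5 of the 30 genes (6.87% of all genes). None of the 7 calls held with the spiked control level as a covariate, where the median was -0.75 and 4.31% of all genes were called in either direction. None held without injured replicates 1, 2 and 4, whose level was high, where the median was -0.42 and 0.212% of all genes were called. That fit leaves 1 injured array, replicate 3, whose spread is taken from the rest of the set. A fit on these 2 groups alone called 1 of 30, and 1.22% of all genes. Leaving out single arrays gave 0 calls without sham replicate 1 or injured replicate 4, 1 without sham replicate 2 or 4, 2 without injured replicate 1 and 11 without injured replicate 2.

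At 7 day no B cell gene was called in trauma-hemorrhage blood by limma, where 2.08% of all genes were lower. At an unadjusted p under 0.05, 9.73% of all genes and, of the 30, only Btk were lower, Btk at -0.55 (SE 0.22, limma adjusted p = 0.104), with all injured arrays below all sham arrays (3.19% of all genes), and 1 gene was called without injured replicate 2. The median was -0.24, and it was 0.24 on the first hybridization day and -0.65 on the second. All 4 injured arrays had a high spiked control level, which here cannot be told apart from the injury. With that level as a covariate the median was -0.21.

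In spleen the B cell genes were also lowest 1 day after burn. There 28 of 30 fell, against 27.5% of all genes, with a median of -1.56, against 0.01 over all genes. The fall was over 2-fold for 22 genes and over 4-fold for 13, and 26 genes lay below all sham arrays on all burned arrays (22% of all genes). The summed signal was 43.5, 41.2, 40.5 and 44.5% of the sham mean on the burned arrays, against 94.9% to 109% on sham arrays.

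Ms4a1 read 1068, 1295, 1293 and 1676 on the burn arrays, against 12219.9, 11802, 11143 and 11599.9 on the sham arrays, a change of -3.12 (SE 0.14, limma adjusted p = 4.21e-26). Spib read 1182, 1399, 914 and 1061 on the burn arrays, against 8737, 8255, 9468 and 7985 on the sham arrays, a change of -2.90 (SE 0.17, limma adjusted p = 3.60e-21). Tnfrsf13b read 286, 334, 499 and 386 on the burn arrays, against 2392, 2471, 2784 and 3037 on the sham arrays, a change of -2.75 (SE 0.19, limma adjusted p = 7.97e-19). All 3 were far below sham on every burned array. Cr2, which marks marginal zone and follicular B cells, changed by -2.82, Fcmr by -2.70, Pou2f2 by -2.64 and Fcrla by -2.48.

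Both signalling chains fell in burned spleen at 1 day, and both were among the genes whose burn effect differed between blood and spleen over the 4 times. Cd79a averaged 2279 ± 273 on the burn arrays and 5319 ± 409 on the sham arrays (SD, n = 4 each), a change of -1.22 (SE 0.19, limma adjusted p = 3.47e-07). Cd79b averaged 6965 ± 1207 on the burn arrays and 11804 ± 1201 on the sham arrays (SD, n = 4 each), a change of -0.77 (SE 0.16, limma adjusted p = 5.36e-05). Blnk, at -0.58, and Pou2af1, at -0.54, had the smallest changes called. Ebf1 read 14154, 13806, 11509 and 7482 on the burn arrays, against 8865, 9141, 7761 and 9667 on the sham arrays, a change of 0.37 (SE 0.23, limma adjusted p = 0.174), with overlapping groups, and Pax5 changed by 0.15 (SE 0.40, limma adjusted p = 0.766). The sign of both turned with the spiked control level as a covariate and without high-level arrays, and of the 4 other Ebf1 probe sets 1 had the same sign.

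Burn replicates 1, 2 and 3 of that group had spiked control levels of 3.15, 3.43 and 4.31 times the spleen median, and replicate 4 did not. Without those 3 arrays, which leaves 1 burned array, the median was -1.38. With the level as a covariate, 26 genes were called with a median of -1.29. The share of all genes called with the covariate is not given here, so the count of 26 stands without it. The fit on all arrays without the covariate called 28, and 49.9% of all genes in either direction. The median was -1.70 on the first hybridization day and -1.44 on the second. The 2 other probe sets of Pou2f2 changed by -1.21 and 0.27, and those of Fcrla by -1.98 and -1.81.

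**Figure D4:**
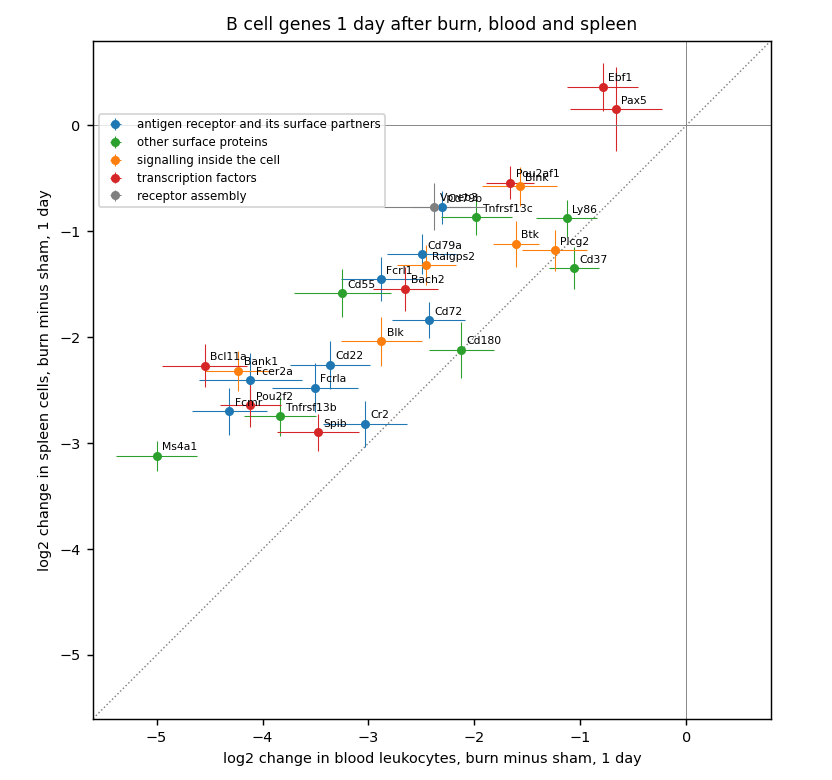
Log2 change (burn minus sham) of 30 B cell genes 1 day after burn, in blood leukocytes (horizontal) and spleen cells (vertical), with standard errors as bars and colours by role; the dotted line marks equal change. Of the 30 genes, 29 lie above the line, with the more negative change in blood, and with Ms4a1 at the lower left and Ebf1 and Pax5 at the upper right.

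The 30 changes at 1 day after burn ran in nearly the same order in blood and spleen, with Pearson r = 0.86 and Spearman rho = 0.86 over 30 genes that share each tissue's arrays. The change was more negative in blood for 29 of 30, Cd37 being the other by the probe set reported. The second Cd37 probe set changed by -2.67 in blood and -1.02 in spleen. At 2 hr after burn, where blood and spleen changes had r = 0.83 and rho = 0.75 over the same genes, it was more negative in blood for 30 of 30. Testing the burn effect in blood against that in spleen over the 4 times together called 11 of 30 genes, against 11% of all genes. They included Ms4a1, with a difference at 1 day, blood minus spleen, of -1.88 (SE 0.42) and an adjusted p of 0.00524. Bcl11a differed by -2.28 (SE 0.46) and Cd79b by -1.54 (SE 0.33) at 1 day, and both were called. Without every sham replicate 1 or every sham replicate 3, 6 genes were called, and 7 without every sham replicate 4, every injured replicate 2 or every injured replicate 3.

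At 2 hr the burned spleen had 4 B cell genes lower and 1 higher, against 1.1% and 3.73% of all genes. Bcl11a read 2688, 1714, 2884 and 2032 on the burn arrays, against 5868, 6692, 2786 and 7175 on the sham arrays, a change of -1.20 (SE 0.20, limma adjusted p = 4.51e-05). Its groups overlapped through sham replicate 3 alone, and its 6 other probe sets had changes of -1.19 to 0.20, 5 of them negative. Ms4a1 read 10646, 10339, 9351 and 9972 on the burn arrays, against 17628, 18054, 11586 and 16247 on the sham arrays, a change of -0.63 (SE 0.14, limma adjusted p = 0.00262), with no overlap, the one gene below sham on all burned arrays (2.16% of all genes). Btk, the kinase that activates phospholipase C below the receptor, was higher, at 3774, 4737, 2745 and 5266 on the burn arrays, against 1687, 2474, 1273 and 2157 on the sham arrays, a change of 1.11 (SE 0.22, limma adjusted p = 0.000504).

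All burned arrays of Btk lay above all sham arrays, where 4.81% of all genes did so, and its change was 1.04 on the first hybridization day and 1.18 on the second. The median of the 30 genes was -0.07, and it was -0.22 on the first hybridization day and 0.12 on the second. Changes were negative for 25 of 30 genes on the first day and 12 of 30 on the second. Fits within a day called 4 genes lower and 1 higher on the first and 0 on the second. They called 1.81% and 0.445% of all genes in either direction. Sham replicate 3 stood apart, with a spiked control level 6.66 times the spleen median and a summed B cell signal of 63.8% of the sham mean, and without it 10 genes were called rather than 5. None of the 5 calls, that of Btk included, held in a fit on these 2 groups alone, which called 0.415% of all genes in either direction. In both burned tissues Bcl11a, Ms4a1, Cd180 and Tnfrsf13b were the genes lower at 2 hr, with Pou2f2 called in blood and, at -0.03, not in spleen.

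At 3 day no B cell gene was called in burned spleen by limma, where 0.0741% of all genes were lower. At an unadjusted p under 0.05, 4 of 30 and 3.75% of all genes were lower, 0 B cell genes were called in any other fit tried, and 29 changes were negative with a median of -0.28. Groups overlapped for all 30 genes, where 2.78% of all genes had every burned array below every sham array.

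At 7 day 24 of 30 were lower again in burned spleen, against 7.76% of all genes, with a median of -0.84. Bach2 read 2917, 1768, 2127 and 3868 on the burn arrays, against 6722, 5992, 6376 and 6351 on the sham arrays, a change of -1.30 (SE 0.21, limma adjusted p = 3.02e-06). Spib read 4307, 4814, 3272 and 6902 on the burn arrays, against 9433, 8664, 10636 and 9730.4 on the sham arrays, a change of -1.04 (SE 0.17, limma adjusted p = 6.29e-06). Tnfrsf13b averaged 1511 ± 380.2 on the burn arrays and 3070 ± 189.6 on the sham arrays (SD, n = 4 each), a change of -1.04 (SE 0.19, limma adjusted p = 2.36e-05). None of the 3 had overlapping groups. Ebf1, which had no call at 1 day, read 4557, 5076, 2912 and 7624 on the burn arrays, against 8864, 9071, 8037 and 8301 on the sham arrays, a change of -0.84 (SE 0.23, limma adjusted p = 0.00539), with no overlap. All injured arrays were below sham for 26 of the 30 genes (14.5% of all genes). Changes at 7 day lay between -1.30 and -0.30, a narrower range than at 1 day, and the genes not called were Plcg2, Bcl11a, Ly86, Pou2af1, Cd180 and Pax5. The median was -0.82 on the first hybridization day and -0.76 on the second. Fits within a day, with 2 arrays a group, called 21 genes on the first and 1 on the second. They called 12.2% and 1.38% of all genes in either direction.

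After trauma-hemorrhage the spleen showed falls of 8 B cell genes at 2 hr, and of 12 and 19 at 3 day and 7 day. At 2 hr, 8 of 30 fell, against 1.49% of all genes. Fcer2a read 882, 537, 352 and 373 on the trauma-hemorrhage arrays, against 1738, 1789, 1656 and 1745 on the sham arrays, a change of -1.73 (SE 0.26, limma adjusted p = 1.88e-06). Spib read 4666, 5358, 3812 and 4694 on the trauma-hemorrhage arrays, against 9070.4, 8583, 7863 and 10060 on the sham arrays, a change of -0.94 (SE 0.17, limma adjusted p = 0.000111). Bank1 averaged 2927 ± 824 on the trauma-hemorrhage arrays and 5895 ± 413 on the sham arrays (SD, n = 4 each), a change of -1.04 (SE 0.19, limma adjusted p = 0.000118). In none of these did the groups overlap.

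Cd55, Cr2, Cd79b, Tnfrsf13b and Ralgps2 completed the 8 genes lower at 2 hr, while the median of the 30 was -0.17 and 10 changes were positive. All injured arrays lay below all sham arrays for 11 genes (7.83% of all genes), and above them for Pou2af1, Pou2f2 and Ly86 (6.3%), none of which was called. Single arrays moved the count: it was 5 without sham replicate 1 or 3 or injured replicate 2, and 4 without sham replicate 2 or injured replicate 3 or 4. The median was -0.21 on the first hybridization day and -0.32 on the second. Bank1, Spib, Fcer2a and Cd79b were also lower in trauma-hemorrhage blood at 2 hr, at -2.13, -1.84, -1.83 and -1.09.

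At 1 day no B cell gene was called in trauma-hemorrhage spleen by limma, where 0.185% of all genes were lower. At an unadjusted p under 0.05, 4 of 30 and 3.96% of all genes were lower, 4 of 30 lay below sham on all arrays (2.03% of all genes), the median was -0.20, and Ms4a1 changed by -0.35 (SE 0.14, limma adjusted p = 0.456). Without injured replicate 2, 1 gene was called, and without arrays of high spiked control level elsewhere in the spleen set, 2 were.

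At 3 day 12 of 30 fell in trauma-hemorrhage spleen, against 2.39% of all genes, with a median of -0.59. Cd72 read 2604, 2043, 2537 and 1606 on the trauma-hemorrhage arrays, against 3489.9, 3898, 3859.6 and 3461 on the sham arrays, a change of -0.76 (SE 0.17, limma adjusted p = 0.00298), with no overlap. Fcer2a read 1733, 1822, 1653 and 1086 on the trauma-hemorrhage arrays, against 3575, 3702, 4684 and 1797 on the sham arrays, a change of -1.06 (SE 0.26, limma adjusted p = 0.00513), and sham replicate 4 lay among the injured arrays. Ralgps2 averaged 2402 ± 612 on the trauma-hemorrhage arrays and 4088 ± 848 on the sham arrays (SD, n = 4 each), a change of -0.78 (SE 0.19, limma adjusted p = 0.00593). The injured group lay wholly below sham for 13 of the 30 genes (6.93% of all genes). The count was 7 without sham replicate 1, 2 or 3, 3 without injured replicate 4, the lowest injured array, and 20 with the spiked control level as a covariate. The median was -0.47 on the first hybridization day and -0.65 on the second. Fits within a day, with 2 arrays a group, called 3 genes on the first and 0 on the second. They called 3.73% and 0.0222% of all genes in either direction.

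At 7 day 19 of 30 were lower, against 2.3% of all genes, with a median of -0.69. Cd72 read 1707, 1553, 1616 and 1795 on the trauma-hemorrhage arrays, against 3037, 3897, 3473 and 3241 on the sham arrays, a change of -1.01 (SE 0.17, limma adjusted p = 9.39e-05). Vpreb3 read 264, 342, 319 and 366 on the trauma-hemorrhage arrays, against 877, 596, 765 and 554 on the sham arrays, a change of -1.03 (SE 0.22, limma adjusted p = 0.000938). Ralgps2 averaged 1868 ± 402 on the trauma-hemorrhage arrays and 3481 ± 557 on the sham arrays (SD, n = 4 each), a change of -0.90 (SE 0.19, limma adjusted p = 0.001). The groups of all 3 were apart. Complete separation below sham was seen for 19 of the 30 genes (3.99% of all genes). Without sham replicate 2 or injured replicate 4 the count was 12, without sham replicate 3 or injured replicate 3 it was 11, and a fit on the 2 groups alone called 4, and 2.53% of all genes in either direction. The median was -0.49 on the first hybridization day and -0.80 on the second. Fits within a day, with 2 arrays a group, called 10 genes on the first and 0 on the second. They called 13.1% and 0% of all genes in either direction. Changes of the 30 genes at 7 day in burned and trauma-hemorrhage spleen, which share no arrays, had r = 0.68 and rho = 0.65.

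LPS gave no called change in B cell genes at either time. At 2 hr 0 of 29 genes were called by limma, where 0.359% of all genes were lower, and 3 were lower at an unadjusted p under 0.05, as were 6.5% of all genes. Fcer2a read 239.9, 166, 234 and 159 on the LPS arrays, against 566, 156, 283 and 486 on the sham arrays, a change of -0.69 (SE 0.29, limma adjusted p = 0.281). Ms4a1 read 1203, 1585, 1351 and 1289 on the LPS arrays, against 2108, 863, 1533 and 1399.6 on the sham arrays, a change of -0.06 (SE 0.23, limma adjusted p = 0.931). Both genes had overlapping groups. The median at 2 hr was -0.09, and it was 0.10 with the spiked control level as a covariate.

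At 1 day after LPS 26 of 29 changes were positive with a median of 0.18. Over all genes 47.6% of the changes were negative, with a median of 0.01. Calls were made for 0 B cell genes, and for 0% of all genes in either direction. At an unadjusted p under 0.05, 0 B cell genes passed, where 5.11% of all genes were lower and 5.83% higher. Fcrl1, an Fc receptor-like protein, read 326, 322, 344 and 352 on the LPS arrays, against 294, 235, 157 and 314 on the sham arrays, a change of 0.42 (SE 0.21, limma adjusted p = 0.467), and was the one gene without overlap (3.83% of all genes). No other fit tried called a B cell gene at either LPS time. The LPS arrays carry another scaling than the injury arrays, so their levels are not set against those of the injury arms.

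The effects themselves were compared between times, injuries and stimuli by moderated F tests. The burn effect differed between times for 23 of 30 B cell genes in blood (14.1% of all genes) and 28 of 30 in spleen (45.1%). For Ms4a1 in blood the effect at 1 day minus that at 2 hr was -3.58 (SE 0.55), with an adjusted p of 6.71e-09 over the 4 times. For Ms4a1 in spleen it was -2.48 (SE 0.20), with an adjusted p of 1.86e-17.

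Over time the trauma-hemorrhage effect differed for 1 gene in blood, Bank1 (9.23% of all genes), and for Cd72, Pou2f2, Fcrl1 and Vpreb3 in spleen (8.28%). Bank1 had its lowest value at 2 hr, the effect at 7 day minus that at 2 hr being 2.01 (SE 0.44). Its sham arrays at 2 hr read 4426, 4800.1, 1885 and 1636, against a median of 7214 over the 32 sham blood arrays of the injury models. The part of that lower sham level in the difference was not tested. The blood count was 0 without every sham replicate 2, 5 without every injured replicate 3 and 2 without every injured replicate 4. The spleen count was 0 without every sham replicate 1, 1 without every injured replicate 1, 2 or 4, and 2 without every sham replicate 2 or 4.

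Burn and trauma-hemorrhage effects differed for 12 of 30 genes in blood (19.4% of all genes) and 22 of 30 in spleen (19.6%). At 1 day in blood, Ms4a1 had an effect lower after burn than after trauma-hemorrhage by a difference of -3.97 (SE 0.55), with an adjusted p of 8.37e-06 over the 4 times. At 1 day in spleen the difference was -2.77 (SE 0.20), with an adjusted p of 7.63e-15. The blood count was 7 without every sham replicate 1 or every sham replicate 2.

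The trauma-hemorrhage effect in blood differed from that in spleen for 7 of 30 genes (12.9% of all genes). That count was 0 without every sham replicate 2 or every injured replicate 1 or 2, 2 without every sham replicate 1, 3 without every sham replicate 4 and 16 without every injured replicate 3.

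The LPS effect differed from the burn effect at 2 hr and 1 day for 26 of 30 genes (16.7% of all genes) and from the trauma-hemorrhage effect for 12 of 30 (4.41%), in fits that joined the 2 scalings. The second count was 1 without every sham replicate 2, 2 without every sham replicate 3 or every treated replicate 2, and 4 without every treated replicate 1. For Ms4a1 the LPS effect minus the burn effect at 1 day was 5.17 (SE 0.52), with an adjusted p of 4.44e-12.

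The other gene lists are set against 16.2% of all genes lower and 9.21% higher in burned blood at 1 day, and 27.5% of all genes lower and 22.5% higher in burned spleen at 1 day. Of 26 other genes of B cell receptor signalling tested in burned blood at 1 day, 11 fell and 4 rose, with a median of -0.57. Rasgrp3, an exchange factor for Ras, averaged 122 ± 50.8 on the burn arrays and 1341 ± 153 on the sham arrays (SD, n = 4 each), a change of -3.21 (SE 0.33, limma adjusted p = 9.12e-12). Nfatc2, Ptpn6 and Siglecg changed by -1.92, -1.84 and -2.15, Ptpn6 being a phosphatase recruited by Cd22. Inpp5d, Cblb, Pik3ap1 and Rel rose. The part of other cell types in the falls and rises of this list was not tested. In burned spleen at 1 day 15 of 26 fell and 1 rose, with Ptpn6 at -2.83 (SE 0.21, limma adjusted p = 1.59e-17) and Vav1 at -2.38 (SE 0.21, limma adjusted p = 5.82e-14).

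Other genes of B cell development and the germinal centre were also called lower 1 day after burn. In blood 9 of 18 fell and 0 rose, Il7r, the interleukin-7 receptor, changing by -3.80 (SE 0.29, limma adjusted p = 4.04e-16) and Igll1 by -3.35 (SE 0.41, limma adjusted p = 1.94e-09). In spleen 13 of 17 fell, with Cxcr5, the receptor that guides B cells into follicles, at -3.28 (SE 0.26, limma adjusted p = 4.71e-16) and Cd40, the receptor for T cell help, at -2.97 (SE 0.24, limma adjusted p = 8.96e-16). Il7r is shared with the T cell list.

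Lymphocyte genes of other lineages were also lower 1 day after burn in both tissues, and neutrophil genes were higher in blood. In burned blood at 1 day 13 of 19 T cell genes and 9 of 13 NK and cytotoxic cell genes fell, with medians of -1.28 and -1.44, and 9 of 13 neutrophil genes rose. Summed T cell signal was 23084 to 31528 on the burn arrays and 60862 to 68888 on the sham arrays. Summed neutrophil signal was 143335 to 163874 on the burn arrays and 48978 to 86236 on the sham arrays. The part of other cell types in the fall of B cell genes was not tested.

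In burned spleen at 1 day 15 of 19 T cell genes and 12 of 13 NK and cytotoxic cell genes fell, with summed T cell signals of 34663 to 42119 on the burn arrays and 67162 to 70529 on the sham arrays. Neutrophil genes there had 4 of 13 higher and 2 lower, with sums of 24911 to 48770.5 on the burn arrays and 21692 to 44361 on the sham arrays, which overlap. The falls of B cell genes in spleen at 7 day came with erythroid genes that rose for 11 of 11 after burn and after trauma-hemorrhage alike. All tested genes had 7.76% lower and 8.56% higher after burn, and 2.3% lower and 5.54% higher after trauma-hemorrhage. Summed erythroid signal at 7 day was 76455 to 124941 on the burn arrays and 6701 to 14239.7 on the sham arrays, and in the other model 64787 to 168149 on the trauma-hemorrhage arrays and 7905 to 46784 on the sham arrays. T cell genes fell for 16 of 19 after burn and 7 of 19 after trauma-hemorrhage at 7 day, and for 12 of 19 in trauma-hemorrhage spleen at 3 day, where 2.39% of all genes were lower. Neutrophil sums at 7 day after burn were 84412 to 123589 on the burn arrays and 22599 to 27585 on the sham arrays. The part of these genes in the B cell gene result was not tested.

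In trauma-hemorrhage blood at 1 day 11 of 11 platelet and megakaryocyte genes and 8 of 11 erythroid genes rose, against 7.11% of all genes, with platelet sums of 219581 to 249562 on the trauma-hemorrhage arrays and 69622 to 110468 on the sham arrays. Erythroid sums were 96802 to 170836 on the trauma-hemorrhage arrays and 36276 to 80078 on the sham arrays. Neutrophil genes had 7 of 13 higher and T cell genes 7 of 19 lower, against 10% of all genes lower. At 3 day 8 of 11 erythroid genes were higher in that blood, against 4.53% of all genes. The part of these lists in the B cell gene falls was not tested. In LPS blood at 2 hr 3 of 13 neutrophil genes rose, against 1.52% of all genes, with a median of 1.82, while the B cell genes had no call.

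Plasma cell genes follow the end stage of the B lineage. Of 10 tested in burned blood at 1 day, Mzb1 fell, at -2.05 (SE 0.30, limma adjusted p = 2.82e-07), as did Irf4, at -1.71. Prdm1, the factor that drives plasma cell fate, rose, at 1.42 (SE 0.39, limma adjusted p = 0.00355). Whether other cell types had a part in these falls and in this rise was not tested. The monocyte list had 1 of 10 higher and 4 lower in burned blood at 1 day, and 1 higher and 6 lower in burned spleen, and dendritic cell genes had 0 higher with 2 and 7 of 10 lower in these 2 comparisons. The stroma and vessel list had 0 of 10 higher with 1 lower, and 3 higher with 1 lower, in the same 2 comparisons.

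**Figure D5:**
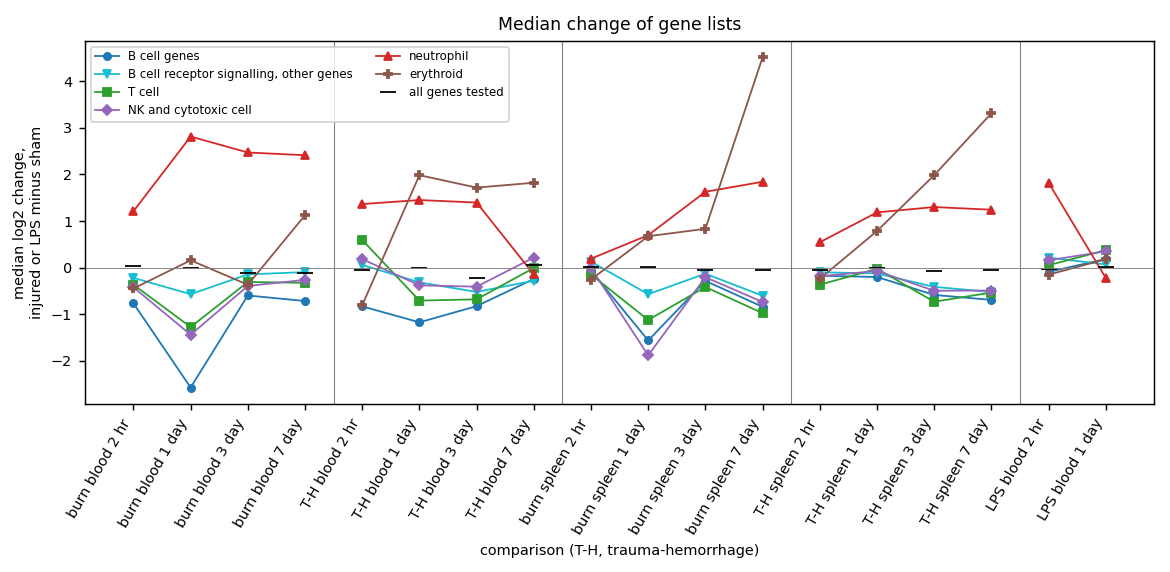
Median log2 change (injured or LPS minus sham) of the B cell genes and 5 other gene lists over the 18 comparisons, with short black lines for all genes tested; lines join the times of one model and tissue. The B cell genes reach -2.58 in burn blood and -1.56 in burn spleen at 1 day, and the erythroid list reaches 4.52 in burn spleen at 7 day.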

How the data were processed

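The authors deposited 1 MAS5 signal intensity per probe set and array (GCOS 1.4, per the submitters' processing notes). The trimmed mean of each injury array was 500.0, and that of the LPS arrays lay between 121 and 141 with the scaling target not given in the sources used here, so the arms were fitted apart except where the LPS effect was compared. Array precision rests on the number of arrays. Of 45101 probe sets, 34945 had 1 gene symbol in the platform annotation, 932 several and 9160 none, with 64 controls left out.

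Computed here were log2(signal + 32), a filter keeping genes whose signal passed the array's median on 4 or more arrays of a set, and limma 3.58.1 in R 4.3.3 (lmFit, eBayes with trend) over all groups of a set: 14649 genes on 64 blood arrays, 13497 on 64 spleen arrays and 11711 on 16 LPS-arm arrays. Joint fits for blood against spleen (15639 genes, 128 arrays) and LPS against injury (15131 genes, 80 arrays) tested differences between effects. Each injured or LPS group was set against the sham group of its model, tissue and time. The fits were tested on simulated data.

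The B cell genes and the other gene lists were chosen with earlier results of these data known. Per-array values or group means with SD are given for up to 3 called genes of smallest p in each comparison. They are also given for Ms4a1, Cd79a, Cd79b, Pax5, Ebf1 and Cr2 in at least 1 comparison. At most 4 genes of any other list are named in a comparison, those of smallest p, except the 4 that rose in blood at 1 day, Irf4 and Prdm1, which were chosen after their values were seen. Alternatives changed the pseudocount, filter, normalization, probe set summary, blocks, control level and arrays, and fits within each hybridization day were added after the data were seen. Trauma-hemorrhage blood titles mention burn and some burn spleen descriptions mention trauma-hemorrhage; the descriptions were followed for blood and the titles for spleen.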

Additional observations from a re-analysis of the deposited data

Results flagged for a closer look

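In 5 of 36 groups the mean log2 level of the 30 B cell genes on 1 array stood far from the other 3 by Dixon's criterion, which chance meets in about 1 group in 20. Burn spleen replicate 3 at 2 hr was low at 11.42. Among sham arrays, the burn-model blood replicate 4 at 7 day was low at 11.28, the trauma-hemorrhage blood replicate 3 at 3 day low at 11.17, the burn-model spleen replicate 3 at 2 hr low at 10.99, and the trauma-hemorrhage spleen replicate 2 at 2 hr high at 11.81.

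Effects differed between times, injuries, tissues or stimuli, by the F tests of the difference, for these numbers of the 30 genes. The percent of all tested genes called is in brackets. Between times the burn effect differed for 23 in blood (14.1%) and 28 in spleen (45.1%). The trauma-hemorrhage effect did so for 1 in blood (9.23%) and 4 in spleen (8.28%). Burn differed from trauma-hemorrhage for 12 in blood (19.4%) and 22 in spleen (19.6%). Blood differed from spleen for 11 after burn (11%) and 7 after trauma-hemorrhage (12.9%). LPS differed from burn for 26 (16.7%) and from trauma-hemorrhage for 12 (4.41%).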

How the results depend on the processing

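Counts below are of B cell genes called. The share of all genes called also moved between fits, as given above for some of them. A shift in these counts alone is therefore not a result about the B cell genes. Leaving out 1 array at a time gave, in burn blood, 2 to 10 at 2 hr, 28 at 1 day, 0 at 3 day and 0 to 1 at 7 day, and in trauma-hemorrhage blood 2 to 8, 7 to 24, 0 to 11 and 0 to 1 at these times. In burn spleen it gave 4 to 10, 28 to 29, 0 and 18 to 25, in trauma-hemorrhage spleen 4 to 6, 0 to 1, 3 to 15 and 11 to 21, and after LPS 0 at both times. For the differences, 1 replicate number was left out of every injured or LPS group, or of every sham group, at once. The counts were then 20 to 25 (burn blood over time), 24 to 28 (burn spleen over time), 0 to 5 (trauma-hemorrhage blood over time), 0 to 4 (trauma-hemorrhage spleen over time), 7 to 18 (burn against trauma-hemorrhage, blood), 18 to 23 (spleen), 6 to 13 (blood against spleen, burn), 0 to 16 (trauma-hemorrhage), 25 to 27 (LPS against burn) and 1 to 18 (LPS against trauma-hemorrhage).

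For burn blood at 7 day, 0 were called with a pseudocount of 1 or no filter, 5 with quantile normalization, 2 with the mean of all probe sets or without arrays of high spiked control level, and 19 in a fit on the groups compared alone. Quantile normalization gave 8 in burn spleen at 2 hr and 8 for trauma-hemorrhage spleen over time, and the mean of all probe sets gave 8 in burn spleen at 2 hr. With the spiked control level as a covariate, trauma-hemorrhage blood at 3 day had 0, spleen at 3 day 20, blood over time 0 and spleen over time 8. Without arrays of high control level, trauma-hemorrhage blood had 4 at 2 hr and 0 at 3 day, its spleen 2 at 1 day and 20 at 3 day, its spleen over time 10, and blood against spleen of burn 5. Fits on the groups compared alone gave 3 in burn blood at 3 day, 2, 12 and 1 in trauma-hemorrhage blood at 2 hr, 1 day and 3 day, 0 in burn spleen at 2 hr and 4 in trauma-hemorrhage spleen at 7 day. They gave 0 and 8 for the trauma-hemorrhage effect over time in blood and spleen, 18 and 1 for blood against spleen of burn and of trauma-hemorrhage, and 7 for LPS against trauma-hemorrhage. The cause of these shifts was not tested.

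Same-numbered arrays did not pair: in 0 of 18 comparisons were all pair correlations over 0.1 (range -0.47 to 0.53). With the replicate block, 0 genes were called in burn blood at 7 day, 3 in trauma-hemorrhage blood at 3 day and 7 for LPS against trauma-hemorrhage, and other counts stayed within 1.5 times. In burn spleen at 1 day, Ebf1 turned to -0.089 with the covariate and -0.24 without high-level arrays, and Pax5 to -0.018 and -0.28, and to -0.51 with quantile normalization. Of 792 single-gene values under alternatives, 733 kept direction and side of the threshold, 48 lost and 6 gained the call, and 5 reversed. Trauma-hemorrhage blood at 7 day and LPS could not be run without high-level arrays, and LPS had no hybridization day block. Dim signal limits Pax5.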

Other observations

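The genes outside the set whose difference from sham followed that of the B cell gene mean most closely were named by Pearson r. It was taken over the 64 arrays of each tissue, each log2 value first centred on the sham mean of its model and time. The r describes arrays that share groups and scaling. In blood they were 6330509M05Rik (r = 0.95), Gga2, Ly6d, Igkv6-15, Ighv14-2, Igkv19-93, Rasgrp1, Aff3, 4930426D05Rik and Igkv6-14 (r = 0.92), 4 of them immunoglobulin variable genes, whose probe sets can bind RNA of near-identical copies. In spleen they were Cd2 (r = 0.95), Zbtb4, Tlr1, Arhgap4, Dock11, Gimap1, 6330509M05Rik, Pbxip1, Stk10 and Rasgrp3 (r = 0.93).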
